A study of Mus musculus with 4 samples.

Results

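The cells described here are a subset of the blood endothelium of mouse lung, selected on their own counts: each carried RNA of at least 2 of Sema3g, Bmp6, Ntrk2 and Plvap. Sema3g encodes a secreted class 3 semaphorin, Bmp6 a bone morphogenetic protein ligand, Ntrk2 the neurotrophin receptor TrkB, and Plvap the protein of endothelial diaphragms. A cell was a member if it had at least 500 genes, at most 15% mitochondrial UMIs (unique molecular identifiers, 1 per captured RNA molecule) and at least 1 UMI of 3 or more of the endothelial genes Cdh5, Ptprb, Pecam1, Tek, Calcrl and Prex2. It also had to hold fewer than 3 genes of each of 3 lists that mark neighbouring groups, and no UMI of Slc6a2, which marks a venous group. Those lists were Kcnh1, Glp1r, Sema3c, Vegfc, Chrm2 and Npr3 (called vein-leaning here), Car4, Ednrb, Rgs6, Tmeff2, Lmntd1 and Fibin (aerocyte), and Cxcl12, Dll4, Hey1, Esm1 and Pknox2 (artery-leaning). Of 16541 cells kept, 8890 met the endothelial criterion and 576 were members. Because these cells' own counts chose them, the levels of the rule's genes below are a description and support nothing.

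The alveolar capillary bed is built from general capillary cells and aerocytes. General capillary cells carry the stem cell factor receptor Kit and the lipase anchor Gpihbp1 and act as progenitors, whereas aerocytes, which carry Car4 and Ednrb, line the thin gas exchange surface. Capillary endothelium grades into arterioles, where Efnb2, Gja5 and Notch ligands are high, and into venules, where Vwf and adhesion receptors are high. Bone morphogenetic protein signalling through Bmpr2, Acvrl1 and endoglin is a main quiescence pathway of this endothelium, and semaphorins signal through neuropilins and plexins.

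The lungs came from C57Bl6/J mice of 8 weeks, dissociated, depleted of CD45+ cells, enriched for Epcam+ cells and sorted live, and single-cell RNA was barcoded by split pooling. Cre_Pos is a pool of 6 mice with Shh.Cre and a Trp73 flox allele at exons 7 to 9, and Cre_Neg a pool of 6 littermates homozygous for the flox allele without Cre. Shh drives Cre in lung epithelium, so the members are not cells in which it is known to act. Each pool went into its own first-round wells and both were then divided over the same 4 sublibraries, the series' 4 samples, which are technical aliquots of 1 preparation. With 1 pool per genotype there is no replicate check between genotypes, pool and wells cannot be told apart from genotype, and no p-value was made. Intervals are exact 95% intervals that cover counting error only. The sort sets how many endothelial cells were recovered, so shares are given within the endothelium.

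The members were 216 Cre_Neg and 360 Cre_Pos cells, with 171, 152, 166 and 87 in sublibraries 1 to 4 and 921915 and 1805092 UMIs in all. They were shallow: the median was 3171.5 UMIs in Cre_Neg and 4133.5 in Cre_Pos members, against 6421 and 7563 in the other endothelial cells. Trp73, the floxed gene, had 3 UMIs in Cre_Neg members (3.25 CPM, UMIs per 1000000 UMIs of the summed cells, interval 0.67 to 9.51) and 1 in Cre_Pos members (0.554 CPM, 0.01 to 3.09). UMIs from outside the deleted exons still count, so these values do not check the deletion. A pair of members shared 1 barcode across sublibraries, and 16 members shared a barcode with any kept cell. A doublet caller marked 185 of the 16541 kept cells and 7 of the members (5 Cre_Neg, 2 Cre_Pos), which stayed in unless stated.

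RNA of other cell types was present in part of the members. Summed alveolar type 2 (AT2) markers ranged from 1387 to 5003 CPM over the Cre_Neg sublibraries and from 161 to 5358 in Cre_Pos, while free RNA, taken from barcodes of at most 50 UMIs, held 6611 and 6213. Summed secretory markers were 35.8 and 387 CPM, fibroblast markers 84.6 and 175, and B and plasma cell markers 212 and 203. Summed lymphatic markers were 364 and 749, and 491 in vein-leaning cells. Among them Lyve1 had 887 UMIs in 276 members, 0.34% of them in the pair of lymphatic-gene cells described below. The lymphatic sum is thus not a sign of another cell type by itself. Summed monocyte and macrophage markers were 849 and 476 CPM (602 over all members against 200 in vein-leaning cells), beside 1282 and 1342 in free RNA, although 4 of these 8 markers, Csf1r, Ccr2, Adgre1 and Fcgr1, were at 0 and no member held 3. Of 7 ciliated markers only Foxj1 was at 0. Their sum was 68.3 and 55.4 CPM, beside 2696 and 1384 in free RNA, and 4 members held at least 3 of them. At 0 were also 4 of 7 pericyte and smooth muscle markers and 5 of 7 T and NK markers. At least 3 markers of another lineage stood in 35 members (14 Cre_Neg, 21 Cre_Pos), whose median was 9311 UMIs. In 27 members these were AT2 markers. A further pair of cells, both Cre_Pos, carried lymphatic genes and had 41011 and 7489 UMIs. The 540 members without these features or a doublet call (202 Cre_Neg, 338 Cre_Pos) are called clean members below, a choice made after seeing the data. The part of the remaining foreign RNA in the results was not tested.

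Bmp6 was the gene that most members carried. It was found in 555 members (96.4%), Plvap in 427 (74.1%), Sema3g in 408 (70.8%) and Ntrk2 in 213 (37.0%). Exactly 2 of these genes stood in 220 members, 3 in 261 and all 4 in 95. Of the 220, 62 carried the Sema3g and Bmp6 pair alone, and 112 the Bmp6 and Plvap pair. The rule asked for 2 of the 4, so these counts do not bear out the name. Bmp6 was 2140 CPM in all members, 2079 in vein-leaning, 1931 in artery-leaning and 217 in aerocyte cells, so it was not particular to members. Ntrk2 was 249, 168, 100 and 22.3. Kit, which the rule did not use, stood at 444 CPM in members with exactly 2 of the genes, 723 with 3 and 918 with all 4. Cells with more of the genes thus also had more Kit per UMI. By sublibrary, Bmp6 was 2486, 2382, 2798 and 2262 CPM in Cre_Neg and 2125, 1861, 1995 and 1874 in Cre_Pos members. These values did not overlap, but the rule selected on Bmp6, and how many of all genes lacked overlap was not counted. Sema3g was 336, 318, 338 and 258 in Cre_Neg and 367, 289, 320 and 310 in Cre_Pos, which overlapped.

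Most members lay next to the rule's limits. Of the vein-leaning genes, 448 members carried 2, 112 carried 1 and 16 none, and of the artery-leaning genes 270 carried 2, 218 carried 1 and 88 none. Members with 2 vein-leaning genes and the 998 cells kept out only by 1 more such gene had close levels of Sema3g (351 against 341 CPM), Bmp6 (2497 against 2270) and Plvap (479 against 497). They stood further apart in Ntrk2 (295 against 217), Vegfc (24.3 against 37.6) and Kcnh1 (21.7 against 53.6). Their median depths were 3968 and 4940 UMIs. Just below the lower limit, 202 cells with only 1 of the 4 genes had 280 Bmp6 and 129 Kit CPM, against 1579 and 444 in the 220 members with exactly 2.

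The share of members fell as depth rose. Members made up 23.6% of endothelial cells under 2000 UMIs, 16.2% from 2000 to 4000, 8.48% from 4000 to 6000, 3.18% from 6000 to 8000, 1.83% from 8000 to 12000 and 1.62% above. Kept cells of at least 2000 UMIs, among them 484 of the 576 members, were also thinned to 2000 UMIs. Of the 8195 that then still met the endothelial criterion, 1649 met the rule. Of these 1649, 390 were members at full depth, 589 (35.7%) were vein-leaning at full depth, 202 artery-leaning, 5 aerocytes and 463 of the remaining endothelium. Thinning thus brought vein-leaning cells under the rule, and how many members deeper sequencing would take out was not tested. Among members, the 62 with at least 8000 UMIs stood apart: 19 of them held markers of another lineage, Kit was 414 CPM against 718 under 4000 UMIs and 789 from 4000 to 8000, and the surfactant gene Sftpc was 2511 against 68 and 21.

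General capillary genes that the rule did not use were mostly lower in members than in vein-leaning cells, and 5 of the 6 stood far above the aerocyte level. The exception was Scn7a, at 1710 CPM in members, 1931 in vein-leaning cells and 2492 in aerocytes. Kit was 657 CPM in all members, 1068 in the 3506 vein-leaning cells, 553 in the 456 artery-leaning cells and 14.5 in the 1417 aerocytes. Members therefore lay between vein-leaning and artery-leaning cells, and all 3 lay far above aerocytes. In clean members Kit was 827, 661, 695 and 534 CPM over the Cre_Neg sublibraries and 678, 974, 763 and 670 in Cre_Pos. Clean vein-leaning cells held 1013, 958, 1048 and 1005, and 1139, 1189, 1225 and 1167. Within each pool every member value was lower than every vein-leaning value. The log2 ratio was -0.59 (-0.66 to -0.52), and it was -0.55 and -0.60 in the pools.

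A Kit UMI was found in 70.4% of Cre_Neg and 80.6% of Cre_Pos members, against 91.3% and 95.7% of vein-leaning cells. AT2 cells, which should lack Kit, gave 1.65% and 2.98% at medians of 11650 and 14569 UMIs. At 2000 UMIs per cell the member shares were 57.7% and 66.5%, the vein-leaning shares 78.9% and 83.3%, the aerocyte shares 2.35% and 2.06%, and the AT2 shares 0.09% and 0.37%. Artery-leaning cells gave 75.2% and 79.3%, and 55.4% and 62.9% when thinned, near the members. The members' shares were thus below those of vein-leaning cells and far above those of aerocytes and of AT2 cells at either depth.

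Other general capillary genes were close to the vein-leaning level. In clean cells Gpihbp1 was 129 CPM in members, 126 in vein-leaning and 127 in artery-leaning cells, a log2 ratio of 0.04 to vein-leaning cells (-0.14 to 0.21). Cd93, a lectin-like receptor, was 1621, 1707 and 1361. Aplnr, the apelin receptor, was 71.4, 86.9 and 32.8, with a log2 ratio of -0.28 (-0.52 to -0.05). Hmcn1, an extracellular hemicentin, was 2670, 3455 and 1899, with a ratio of -0.37 (-0.41 to -0.33). Of the 6 general capillary genes outside the rule with at least 20 UMIs, 1 lay above the vein-leaning level and 5 below, and the median was -0.18, beside 0.03 over all genes tested. The plot of levels by sublibrary shows these genes with genes of the arterial side and Vwf.

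**Figure D1:**
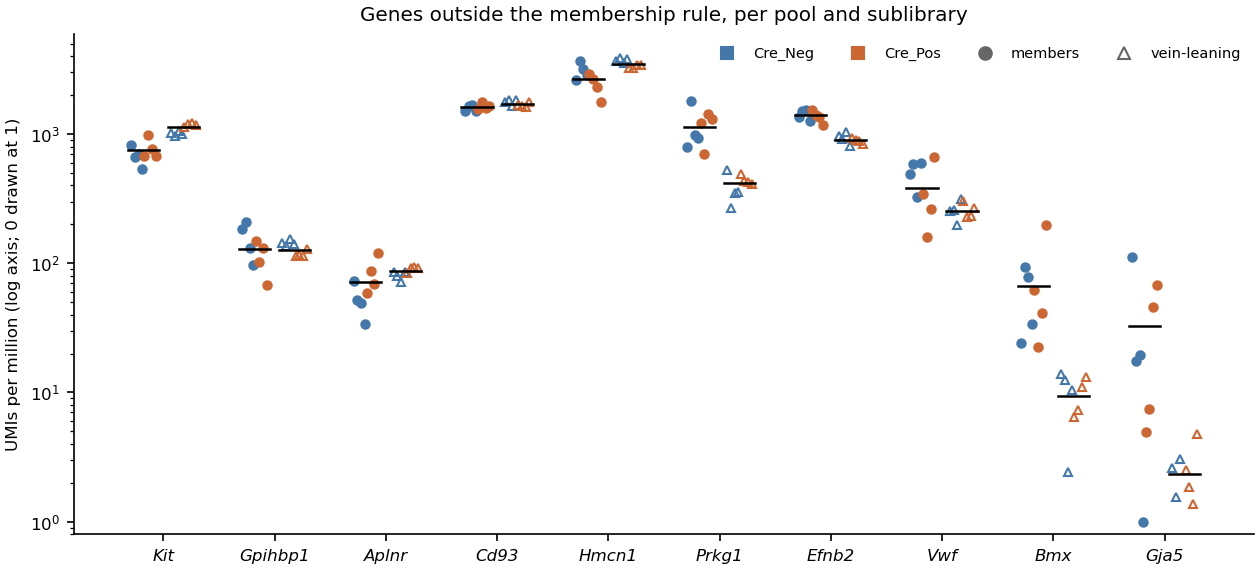
CPM (log axis) of 10 genes in clean members (circles) and clean vein-leaning cells (triangles), 1 point per pool and sublibrary, with black bars for the level over all sums and values of 0 drawn at 1. Kit lay lower in members (748 against 1125 over all sums), Gpihbp1 and Cd93 overlapped, and Prkg1 and Efnb2 lay higher in members in every sublibrary of either pool.

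Against all 8314 other endothelial cells, members were lower in far more genes than they were higher. Of 13471 genes, 0.839% (113) were at least 2-fold higher in both pools and 3.02% (407) at least 2-fold lower, beside a median of -0.00, and 4 and 226 of these kept their sign in all 8 sums of pool and sublibrary. The 4 higher genes were Bmx, an arterial tyrosine kinase (62.0 against 18.6 CPM), Adam23 (85.1 against 31.4), Lrrc3b (33.4 against 10.6) and the mediator kinase Cdk19 (529 against 229). Most were not particular to members. Over classes of depth, artery-leaning cells held 129 to 163 CPM of Bmx, 82.0 to 103 of Adam23 and 379 to 502 of Cdk19. Lrrc3b was 0 to 8.41 there. Among the lower genes Egflam, an extracellular matrix gene, was 5.13 against 160, the kinesin gene Kif26b 11.4 against 132 and the transcription factor gene Tbx2 9.53 against 90.2. Ptprc, the leukocyte gene for CD45, was 1.10 against 34.5. The remaining 11 named lower genes were Slc5a12, Chst1, Prkcb, Dpysl5, Dock2, 2610203C22Rik, Arhgap15, Sirpa, C7, Itga4 and Muc5b. The rule keeps the other groups out, so these counts are only a description. Without cells with markers of another lineage the 407 became 177, and C7 and Muc5b turned sign. Such cells were 19.5% of the remaining endothelium and 6.08% of members. The part of foreign RNA in these counts was not tested.

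A closer comparison was that of clean members with clean vein-leaning cells, since the same 4 genes run through both. Of 9569 genes, 0.982% (94) were at least 2-fold higher in members in both pools and 0.376% (36) at least 2-fold lower, and 30 and 17 kept their sign in all 8 sums. The rule shares genes with this contrast, so it is given as a description. The genes highest in members were mostly higher still in artery-leaning cells. Prkg1, the cGMP-dependent kinase that nitric oxide signalling engages, was 1141 CPM in members, 419 in vein-leaning and 3759 in artery-leaning cells. By sublibrary it was 789, 1809, 979 and 926 in Cre_Neg members and 1218, 699, 1426 and 1315 in Cre_Pos members, against 525, 269, 350 and 358, and 494, 435, 426 and 410. The groups did not overlap, 298 of the members carried it, and the log2 ratio was 1.44 (1.38 to 1.51). A shared sign in all 8 sums was required of the genes named in this comparison.

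Most of the other higher genes came from fewer cells. Mecom, an EVI1 transcription factor gene of arterial endothelium, was 316 CPM against 37.8 in vein-leaning and 845 in artery-leaning cells, from 114 members. Atp13a3, a polyamine transporter, was 213 against 14.4 and 1283, from 61 members. Bmx was 66.2 against 9.47 and 156, from 53 members, and the transcription factor gene Gata6 40.8 against 9.81 and 96.8, from 60. Adgrg6 was 88.1 against 17.2 and 591, Thsd7a 94.2 against 10.2 and 320, the fibrillin gene Fbn1 69.7 against 9.51 and 145, and the membrane repair gene Myof 51.7 against 2.93 and 141. Vcam1, a leukocyte adhesion receptor, was 40.3 against 3.61 and 14.2, but 1 cell held 47.8% of its member UMIs. The remaining named higher genes were Mir100hg, Pde1c, Flrt2, Spata13 and Pcdha10.

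Lower than in vein-leaning cells were genes that artery-leaning cells also held at low levels. Gm30382 was 231 CPM in members and 631 in vein-leaning cells, and lower still in artery-leaning cells, with a log2 ratio of -1.45 (-1.58 to -1.32). Ptgs1, which encodes cyclooxygenase 1, was 26.7, 88.5 and 6.92. The kinase gene Prkcq was 28.1, 100 and 13.5, and the tetraspanin gene Tspan8 34.6, 80.4 and 20.4. In these genes the member level lay between its neighbours. The other named lower genes were Mbnl3, Oas2, Rarb, Gm49339, Pag1, Gm10287, Aspa, Cep41, Sec14l2, D11Wsu47e and Lilrb4a.

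By list, in clean cells, 10 of 10 arterial genes outside the rule lay above the vein-leaning level, 4 of them at least 2-fold, with a median of 0.62 beside 0.03 over all genes tested. Efnb2, the arterial ephrin, was 1394 CPM against 904 in vein-leaning and 2439 in artery-leaning cells, and its member sums of 1184 to 1531 did not overlap the vein-leaning sums of 802 to 1045. Gja5, an arterial connexin, was 32.4 against 2.34, from 29 members. Of the 13 basement membrane genes all lay above, 6 at least 2-fold, with a median of 0.65. Col4a1 was 1334 against 1030 and Hspg2, the perlecan gene, 131 against 13.4, the latter from 46 members. Of 9 venous genes 6 lay above, 4 of them at least 2-fold, and 3 below, none 2-fold. Their median of 0.70 was no smaller than that of the arterial list. Vwf was 385 against 256, and 1384 in artery-leaning cells. The immediate early list lay slightly below (2 above, 12 below, median -0.13), as did major histocompatibility complex (MHC) class II (1 above, 6 below, median -0.24). With all cells of both groups MHC class II had 5 above and 2 below, with a median of 0.01, so its direction turned with the choice of clean cells.

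Of the pathways of the genes that give the cells their name, the BMP list had a median close to the vein-leaning level. The semaphorin list had a median somewhat above it. Of 19 measured genes of the BMP pathway 16 lay above and 3 below, with a median of 0.16. The receptor Bmpr2 was 3493 CPM against 3411, Acvrl1 718 against 771 and Eng, the co-receptor endoglin, 921 against 858. The inhibitory Smad6 was 1286 against 1005, and 2327 in artery-leaning cells. The target Id1 was 45.6 against 45.5 and Tmem100 1119 against 1108. Of 10 semaphorin, neuropilin and plexin genes outside the rule 8 lay above, 3 of them at least 2-fold, and 2 below, none 2-fold. Their median was 0.51. The receptor Nrp1 was 985 against 883, Plxnd1 189 against 121, and Nrp2 86.8 against 13.2 in 33 members. Of the neurotrophin list only Sort1 and Frs2 passed 20 UMIs beside Ntrk2, and the ligand gene Bdnf was at 0 in clean members and in clean vein-leaning cells. Kitl, the ligand gene of Kit, was 567 against 437 CPM, and 709 in artery-leaning cells.

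A minority of members carried Mecom, and part of the other arterial-side genes and some venous-list genes stood higher in those cells. In clean cells of each group, a Mecom UMI stood in 21.1% of members (17.7 to 24.8), 13.5% of vein-leaning, 54.5% of artery-leaning and 10.0% of aerocyte cells, and at 2000 UMIs per cell in 15.6% (12.4 to 19.3), 5.51%, 40.7% and 2.32%. The 540 clean members were 114 with Mecom (35 Cre_Neg, 79 Cre_Pos; median 4880 UMIs) and 426 without (median 3596.5). This split was chosen after its values were seen, and since the cells are divided by a gene of the same counts the differences are a description.

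Cells with Mecom were higher in Atp13a3 (696 against 33.1 CPM, log2 ratio 4.39), in Vwf, the von Willebrand factor gene (1074 against 128, 3.07 with an interval of 2.84 to 3.30), in Bmx (189 against 20.5), Gja5 (84.0 against 13.2), Hspg2 (367 against 43.3), Ltbp4 (203 against 42.1) and Prkg1 (2097 against 784). Vwf is on the venous list, and Nrp2 (187 against 49.3, 1.92) and Vcam1 (124 against 9.02, 3.78) of that list were higher too. Much of the Vcam1 lay in 1 cell, and the other venous-list genes were not compared in this split. Cells with Mecom were lower in Kit (555 against 819, -0.56 with an interval of -0.74 to -0.39), in the sodium channel gene Scn7a (964 against 2301, -1.26) and in Hmcn1 (1942 against 2941). Gpihbp1 was 121 against 132 (-0.13) and Cd93 1505 against 1665. Kit was thus lower in the Mecom group, and in the members without Mecom it was 819 CPM, closer to the 1125 of clean vein-leaning cells. Not all arterial genes went with Mecom. Efnb2 was at 0.13 over both pools and had opposite signs in them, at -0.29 in Cre_Neg and 0.30 in Cre_Pos. Sox17, an arterial transcription factor gene, was 140 against 174 (-0.31, interval -0.68 to 0.04), at -1.31 in Cre_Neg and 0.09 in Cre_Pos. The elastin gene Eln was 552 against 150, with a ratio of 3.47 in Cre_Neg and 0.32 in Cre_Pos.

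**Figure D2:**
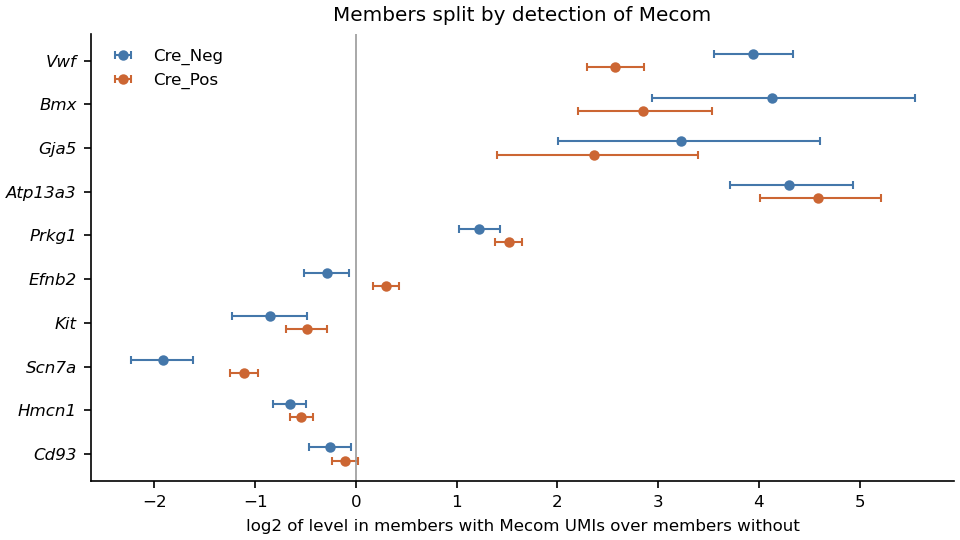
Log2 ratio of levels in clean members with a Mecom UMI over those without, for each gene and pool, with exact 95% intervals that cover counting error. Vwf (3.07 over both pools) and Bmx stood above 0, Kit (-0.56) and Scn7a (-1.26) below, and Efnb2 had opposite signs in the pools.

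As a share of endothelial cells, members were close in the pools. They were 7.23% of 2989 Cre_Neg endothelial cells (6.32 to 8.21) and 6.10% of 5901 Cre_Pos endothelial cells (5.50 to 6.74). By sublibrary the shares were 8.66%, 6.56%, 7.04% and 6.54% in Cre_Neg, and 6.60%, 6.12%, 6.96% and 4.17% in Cre_Pos. The Cre_Pos share was the lower in each sublibrary, though the ranges overlapped, and the means were 7.20 ± 1.00% and 5.96 ± 1.24% (SD over 4 aliquots of 1 pool). The log2 ratio of the shares was -0.24 (-0.49 to 0.01).

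That direction did not hold once depth was matched. In cells of 4000 to 8000 UMIs the shares were 4.88% in Cre_Neg and 6.31% in Cre_Pos (log2 ratio 0.37). Thinning to 2000 UMIs left out all shallower cells. It kept 168 of the 216 Cre_Neg members and 316 of the 360 Cre_Pos members, and the rule was read again on the thinned counts. The shares were then 16.8% and 21.7% (log2 ratio 0.36). Under 2000 UMIs they were 23.1% and 24.2%, from 2000 to 4000 15.5% and 16.7%, from 4000 to 6000 6.67% and 9.47%, and from 6000 to 8000 2.91% and 3.30%. Cre_Pos was the higher in these 4 bins and the lower from 8000 to 12000 (1.97% and 1.78%) and above (2.12% and 1.42%). The intervals of the pools overlapped in every bin, also from 4000 to 6000 UMIs (4.87 to 8.88 against 7.86 to 11.3). The bin above 12000 UMIs held only 9 and 15 members. The other endothelial cells of Cre_Pos were the deeper, at medians of 7563 against 6421 UMIs, and the direction of the difference in share depended on whether depth was matched.

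**Figure D3:**
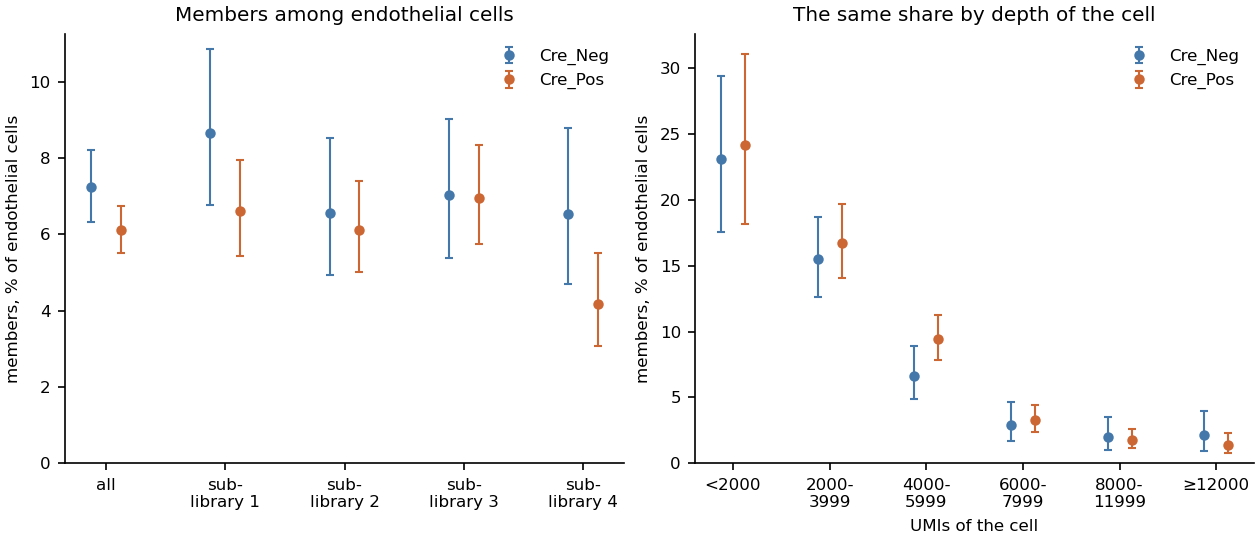
Members as a percent of endothelial cells in each sublibrary (left) and in each class of UMIs per cell (right), by pool, with exact 95% intervals that cover counting error. Cre_Pos lay lower in each sublibrary (4.17% to 6.96% against 6.54% to 8.66%) but higher in the 4 classes under 8000 UMIs. The intervals of the pools overlapped in every sublibrary and class.

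Between the pools few genes differed by size. Of 4285 genes with at least 100 UMIs in the members, 0.933% (40) were at least 2-fold higher in Cre_Pos and 1.07% (46) at least 2-fold lower, and 18 and 9 kept their sign in the 4 sublibraries. The median over these genes was 0.02. Among clean members the counts were 12 higher and 16 lower. The pools also differed in sex makeup: 13.7% of Cre_Neg members with a sex-linked UMI of 1 kind had Y-linked UMIs only (8.77 to 20.0), against 2.50% of Cre_Pos members (1.01 to 5.08). For the genes described by sublibrary below, the ratio is also given in the members with Xist UMIs only (139 Cre_Neg, 273 Cre_Pos) and in vein-leaning cells, which come from the same mice. Those genes were chosen for 1 sign in the 4 sublibraries, so their agreement over sublibraries follows from the choice. How many of all genes lacked overlap between the pools was not counted. The Y-only members are few (22 and 7), and their Cre_Pos cells were also lower in Kit (-1.36), Bmp6 (-0.91) and Pecam1 (-1.07).

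Immediate early genes were higher on balance in Cre_Pos members. Of 14 measured genes 10 lay above and 4 below, 4 at least 2-fold higher (Atf3, Fosb, Junb and Zfp36), and the median was 0.47 in all members, 0.49 in clean members and 0.58 in Xist-only members. Atf3, a stress-induced transcription factor gene, was 150, 61.0, 55.5 and 65.5 CPM over the Cre_Neg sublibraries and 313, 261, 234 and 175 in Cre_Pos. The groups did not overlap. In sum it was 84.6 against 252, a log2 ratio of 1.57 (1.23 to 1.94) from 149 cells, with 1.62 in Xist-only members and 1.30 in vein-leaning cells. Y-only members held 11 UMIs in Cre_Neg and 1 in Cre_Pos (-2.95, interval -8.38 to -0.17).

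Fosb, an AP-1 subunit gene, was 126, 82.7, 106 and 100 CPM in Cre_Neg and 261, 197, 175 and 339 in Cre_Pos, without overlap. Its ratio was 1.15 (0.83 to 1.49), with 1.96 in Xist-only members and 1.09 in vein-leaning cells. Y-only members held 27 UMIs in Cre_Neg and 0 in the 7 Cre_Pos cells. Junb was at 1.06, Zfp36 at 1.03, Fos at 0.85, Egr1 at 0.74 and Jun at 0.43. The vein-leaning values show that the difference was also present next to the members, and it was not tested whether it differed in size.

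Peak1, a pseudokinase scaffold gene, was 198, 187, 296 and 218 CPM in Cre_Neg and 584, 395, 318 and 652 in Cre_Pos, again without overlap. Its ratio was 1.06 (0.84 to 1.28) from 297 cells, 0.72 in clean members, 0.54 in Xist-only members and 0.91 in vein-leaning cells. It was under 2-fold in 10 of 16 alternative settings. Free RNA held 162 CPM in Cre_Neg and 252 in Cre_Pos, so Peak1 was also higher outside cells, and its part in the difference was not tested.

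Basement membrane genes were also higher on balance in Cre_Pos. Of 13 genes 11 lay above and 2 below, 4 at least 2-fold higher (Nid2, Col15a1, Lamc1 and Lama4), with medians of 0.31 in all, 0.20 in clean and 0.43 in Xist-only members. In clean members 10 lay above and 3 below, 2 at least 2-fold higher and 1 at least 2-fold lower. Lamc1, the laminin gamma 1 chain, was 64.8, 69.7, 83.2 and 74.2 CPM in Cre_Neg and 115, 188, 143 and 214 in Cre_Pos, without overlap, at 1.15, with 0.92 in clean members, 1.18 in Xist-only members and 0.26 in vein-leaning cells. Lama4, an endothelial laminin chain, was at 1.07, and 0.65 in clean members. Col15a1 was at 1.40 from 38 cells, and -0.57 in vein-leaning cells. The abundant chains Col4a1 and Col4a2 were at 0.16 (0.05 to 0.27) and 0.06 (-0.05 to 0.17).

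MHC genes lay mostly below 0 in Cre_Pos members, but only 2 of 15, Ciita and H2-Ab1, by 2-fold. All 8 measured class I genes lay below 0, none 2-fold, with a median of -0.23 in all and -0.25 in clean members. In Xist-only members 3 lay above and 5 below, with a median of -0.14. B2m, the shared light chain, was at -0.23. Of 7 class II genes 6 lay below and 1 above, with medians of -0.77 in all, -0.85 in clean and -0.68 in Xist-only members. H2-Ab1, a class II chain gene, was 81.0, 78.4, 83.2 and 105 CPM in Cre_Neg and 32.6, 77.1, 31.4 and 19.8 in Cre_Pos. The Cre_Pos values lay below the Cre_Neg values, sublibrary 2 only just. In sum it was 86.8 against 43.2, a ratio of -1.01 (-1.47 to -0.54), beside -1.06 in Xist-only members and -0.68 in vein-leaning cells, and free RNA held 47.0 and 45.5 CPM. It was under 2-fold in 12 of 16 alternative settings, where it ranged from -1.62 to -0.51. Ciita, the class II transactivator gene, was at -1.20 (-1.66 to -0.76), and at -0.68 in Xist-only members. Cd74, the invariant chain, was at -0.76 in members and -1.34 in vein-leaning cells.

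**Figure D4:**
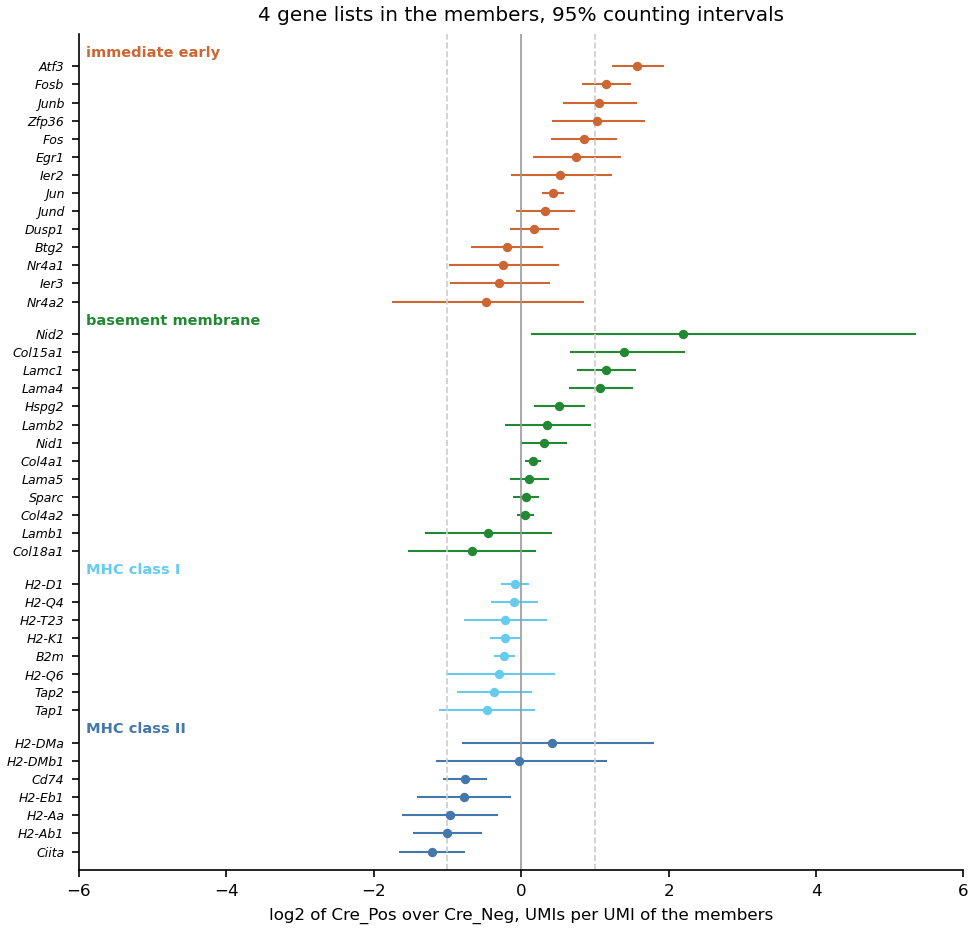
Log2 ratio of Cre_Pos over Cre_Neg members for the measured genes of 4 lists, 1 point per gene with its exact 95% counting interval and dashed lines at 2-fold. Immediate early (median 0.47) and basement membrane genes (0.31) lay mostly above 0, MHC class I genes (-0.23) all below and MHC class II genes (-0.77) below but for 1.

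Cyp26b1, which breaks down retinoic acid, was 81.0, 61.0, 41.6 and 144 CPM in Cre_Neg and 36.9, 9.40, 25.6 and 56.0 in Cre_Pos. The Cre_Pos sublibrary 4 value lay above the Cre_Neg sublibrary 3 value, so the groups overlapped, while Cre_Pos was lower within each sublibrary. In sum it was 82.4 against 28.8, a ratio of -1.52 (-2.05 to -0.99), with -1.78 in Xist-only members and -1.64 (-1.87 to -1.41) in vein-leaning cells.

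Eln was 502, 196, 148 and 620 CPM in Cre_Neg and 178, 156, 120 and 142 in Cre_Pos, high in Cre_Neg sublibraries 1 and 4 and overlapping elsewhere. Its sum was 372 against 149, a ratio of -1.32 (-1.56 to -1.09). One cell held 18.1% of its UMIs, the ratio was -0.03 in Xist-only members (-0.37 to 0.32) and -2.87 in Y-only members, and it was 0.10 in vein-leaning cells. The pools thus did not stand apart in Eln among the Xist-only members, and the part of sex makeup in the difference was not tested.

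**Figure D5:**
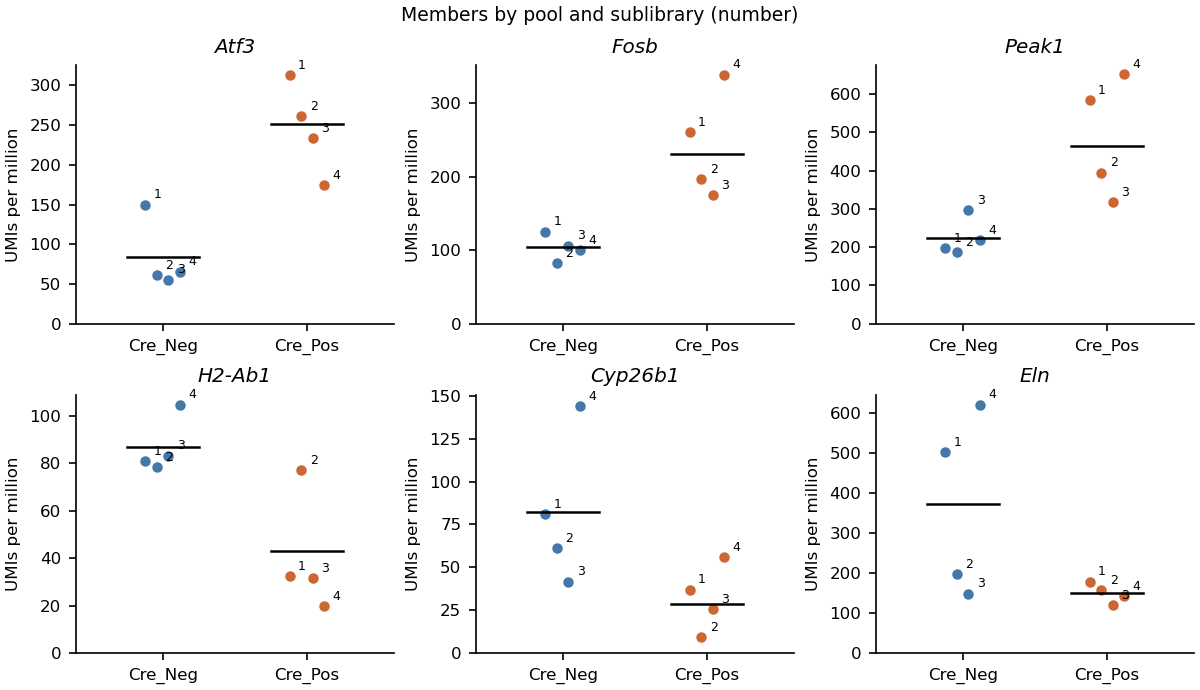
CPM of 6 genes in the members of each pool, 1 point per sublibrary, with bars for the level over the summed cells. Atf3, Fosb and Peak1 lay higher in Cre_Pos in every sublibrary and H2-Ab1, Cyp26b1 and Eln lower, which the choice of these genes required. Eln had its high values in Cre_Neg sublibraries 1 and 4.

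Several further genes past the fold rested on few cells or on cells with other RNA. Adam12 (3.20) came from 17 cells with 59.6% of UMIs in 1 cell, Cp (3.16) from 14 cells, Col23a1 (3.02) from 16, and Ctdspl (1.57) held 46.9% of UMIs in 1 cell. Prkcq was at 1.87, with 30.2% of UMIs in 1 cell. In Xist-only members Adam12 was at 1.69, Prkcq at 1.05 and Ctdspl at 0.43, against 3.48 for Cp and 3.70 for Col23a1, and in vein-leaning cells these 5 genes lay between -0.19 (Col23a1) and 0.74 (Cp). Arhgap6 was at 1.11 and Kctd12 at 1.17 in all members and at 0.35 and 0.60 in clean members, and Adarb1 at 1.38. Among the lower genes, Ctsh (-1.59), Arhgef38 (-1.67), Wwc1 (-1.36) and Tmem132d (-1.25) came from 21 to 28 cells each. Free RNA held 437 and 334 CPM of Arhgef38, and 501 and 440 of Tmem132d. Dtd1 was at -1.16 and Slc24a3 at -1.41.

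The genes that name the cells differed little between the pools. Kit was at 0.23 (0.08 to 0.38), beside 0.25 in vein-leaning cells, and Kitl at 0.46 (0.29 to 0.62). Bmp6 was at -0.33 (-0.41 to -0.26), Sema3g at 0.04 (-0.17 to 0.25), Ntrk2 at -0.15 (-0.38 to 0.08) and Plvap at 0.30 (0.12 to 0.48). Of 19 measured BMP pathway genes 12 lay above 0 and 7 below, none 2-fold, with a median of 0.14. Smad1, a signal transducer, was at 0.75 (0.41 to 1.10), and the target Tmem100 at -0.33 (-0.44 to -0.22), beside -0.28 in vein-leaning cells. Of the 10 measured arterial genes 4 lay above and 6 below, with a median of -0.11, and of the 6 general capillary genes 4 lay above and 2 below, with a median of 0.16.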

How the data were processed

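The authors deposited 1 matrix of whole UMI counts per gene and barcode for all 4 sublibraries, not normalized, with a gene table and a cell table, per the file headers. The submitters' processing notes name GRCm39 while the deposited gene table says mm10, so no coordinate is given. The sources used here do not name the aligner or the counter. The matrix holds 647296 barcodes of at least 10 UMIs, of which 16579 held 500 genes or more, 16541 of them with 15% or less of their UMIs mitochondrial. Each cell's sublibrary came from the end of its deposited barcode, and its pool from the sample column of the cell table.

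Members and gene lists were chosen with earlier results of these data known. Counts were summed over cells, and levels are CPM, UMIs per 1000000 UMIs of the summed cells, with ratios on the log2 scale and a floor of 3 counts for a group at 0. Genes with at least 100 UMIs (20 within lists) were used. Genes past 2-fold with the same sign in all sublibraries were ordered by whichever interval bound lay closest to 0, taking 15 in each direction and leaving out mitochondrial, ribosomal, sex-linked, haemoglobin and rule genes; members of each list furthest apart were added. One gene so chosen is not reported here. Shares and ratios have exact binomial or Poisson 95% intervals. Doublets were called with scanpy 1.11.5. Other tools were Python 3.11.15, numpy 2.4.6, scipy 1.17.1, pandas 2.3.3 and matplotlib 3.10.9. The scripts were tested on simulated data. The comparison with vein-leaning cells, the clean cells, the cells of 4000 to 8000 UMIs and the members without lymphatic genes were chosen after seeing the data. Alternatives varied the cell filters, the number of rule genes, depth, doublets, the UMI minimum and each sublibrary left out. Depth limits single genes: a member held 737 to 41011 UMIs.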

Additional observations from a re-analysis of the deposited data

Results flagged for a closer look

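Among 52 groups of 4 sublibraries checked, 9 held a sublibrary whose gap to its nearest neighbour was large for the range, and chance gives about 1 in 20. In Cre_Neg these were Adam12 in sublibrary 4 (13.1 CPM), Atf3 in sublibrary 1 (150) and Dtd1 in sublibrary 4 (135). In Cre_Pos they were Adam12 (167), Ctdspl (156), Kctd12 (126) and Prkcq (99.9) in sublibrary 1, Tmem132d in sublibrary 2 (256), and the median depth of members in sublibrary 4 (5119 UMIs). Sublibrary 1 held the high Cre_Pos values of 4 of these genes. Fosb was higher in Cre_Pos among Xist-only members (log2 ratio 1.96), whereas Y-only members held 27 UMIs in 22 Cre_Neg cells and 0 in 7 Cre_Pos cells. The sign in Y-only members thus rests on an empty group of few cells, and the difference was not tested.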

How the results depend on the processing

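With at least 3 of the 4 genes required, the shares were 4.12% and 3.95%; thinned to 2000 UMIs they were 16.8% and 21.7%, and from 4000 to 8000 UMIs the Cre_Neg share was 4.88%. Their log2 ratio of -0.24 turned to 0.36 thinned and 0.37 from 4000 to 8000 UMIs. Leaving out each sublibrary gave 6.73 to 7.47%, 5.79 to 6.55% and -0.33 to -0.18. The 40 genes higher in Cre_Pos became 15 with at least 3 genes, 12 without other-lineage cells and 12 in clean cells, 21 without the lymphatic-gene cells, 21 from 4000 to 8000 UMIs, 407 at 20 UMIs and 1112 with no minimum (sublibraries left out: 28 to 32). The 46 lower became 13, 15 and 16, 30 without doublets, 9 from 4000 to 8000 UMIs, 297 at 20 and 839 with no minimum (24 to 54). Against other endothelium, the 113 higher became 15 thinned, 34 from 4000 to 8000 UMIs, 1959 at 20 and 3133 with no minimum (81 to 143); the 407 lower became 177 without other-lineage cells, 179 in clean cells and 158 from 4000 to 8000 UMIs (361 to 377). Against vein-leaning cells, the 94 higher became 38 with at least 3 genes, 56 thinned, 36 from 4000 to 8000 UMIs, 484 at 20, 946 with no minimum and 270 with all cells (47 to 94, the lowest without sublibrary 4); the 36 lower became 71, 57 at 20, 57 with no minimum and 116 with all cells (34 to 46).

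Between the pools, signs turned for several named genes. With at least 3 genes these were Cp -1.16, Col23a1 -0.84, Ctdspl -0.92, Adarb1 -0.16 and Eln 0.062. Thinned they were Adam12 -0.40, Cp -3.03, Col23a1 -0.50 and Col15a1 -0.40. From 4000 to 8000 UMIs they were Cp -0.57, Ctdspl -0.73, Lamc1 -0.11, Tmem132d 1.5 and Wwc1 0.27. Without other-lineage cells and in clean cells Tmem132d was at 2.24. Against other endothelium, Dock2 turned to 0.049 thinned, and Muc5b to 3.30 thinned, 0.56 without other-lineage cells and 0.55 in clean cells. C7 turned to 0.74 without other-lineage cells, 0.74 in clean cells and 0.84 from 4000 to 8000 UMIs, at the floor of 3 counts. Against vein-leaning cells, Mbnl3 turned to 0.23 with all cells, and Pag1 to 0.092 and D11Wsu47e to 0.30 thinned. The cause was not tested. Of 1062 values of named genes under alternatives, 912 moved by less than 1 SD over sublibraries, and of 841 list medians 743.

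Limits are those of 1 pool per genotype, a membership that follows depth, and few UMIs per gene; genes with under 100 UMIs were not compared singly. No paired analysis was possible because each genotype is 1 pool and the 4 samples form 1 group.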

Other observations

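Vessel growth factors of few cells differed between the pools. Angpt2, which loosens the contact of endothelium with its support cells, had 8 UMIs in Cre_Neg and 83 in Cre_Pos members, a log2 ratio of 2.41 (1.36 to 3.66), and 2.19 in clean members. Apln, the ligand gene of Aplnr, was at 2.98 (1.01 to 6.09) in all members, from 8 cells with 66.7% of the UMIs in 1, and at 2.90 in clean members. The receptors of this system differed less: Kdr was at 0.19 (0.00 to 0.37), Flt1 at 0.02 (-0.10 to 0.13), Tek at 0.27 (0.18 to 0.37) and Tie1 at 0.12 (-0.09 to 0.33).

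Of 9 measured heat shock genes 7 lay above 0 and 2 below in Cre_Pos members, with a median of 0.44, 0.43 in clean and 0.83 in Xist-only members, and Hspa1a, the inducible Hsp70, was at 2.16 (1.10 to 3.43). All 6 measured mitochondrially encoded genes lay below 0 with a median of -0.43, and -0.20 in clean members. Of the endothelial transcription factors, Erg was at 0.47 (0.31 to 0.64) and Fli1 at -0.36 (-0.52 to -0.21). Edn1, the endothelin 1 gene, was at -0.79, beside -0.59 in vein-leaning cells.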
